A study of Homo sapiens with 24 samples.

Results

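The unfolded protein response and the integrated stress response were followed in A549, a long-established human cell line of lung adenocarcinoma, through 38 genes chosen by symbol. All 38 were found among the 58721 gene identifiers of the count files. By textbook role they were grouped into an ATF4 branch of 22 genes, an XBP1 branch of 5 genes and an ATF6 branch of 11 genes. All 38 passed the filter on low counts in each of the 4 comparisons, so no member was left untested.

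Cells that accumulate unfolded protein in the endoplasmic reticulum (ER) respond through 3 membrane sensors. PERK, encoded by EIF2AK3, phosphorylates the translation initiation factor eIF2α, which slows most translation while ATF4 protein is made, and other kinases reach the same step when amino acids or heme run short. IRE1α, encoded by ERN1, splices XBP1 mRNA into the form that encodes an active transcription factor, and ATF6 is cut in the Golgi to release its own. ATF4 is known for inducing genes of amino acid supply and, with CHOP, of cell death, whereas XBP1 and ATF6 are known for inducing chaperones and the machinery of ER-associated degradation (ERAD). Counts per gene show neither the splicing of XBP1, nor the phosphorylation of eIF2α, nor the translation of ATF4.

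The series holds 24 poly(A) RNA-seq libraries of this single line. The single knockdowns comprised siMYBL2, siFOXM1 and siControl groups of 4 libraries each, from cells transfected with 25 nM of siRNA against the transcription factor MYBL2, against the transcription factor FOXM1, or of a scrambled siRNA. In the joint knockdown there were 3 siBoth libraries (both siRNAs) and 3 siControl_siBoth libraries with their own scrambled control. The last experiment had 3 FDI6 libraries, from cells given 20 µM of FDI-6, a small molecule that blocks DNA binding by FOXM1, for 24 h, and 3 control_FDI6 libraries labelled only as wild type, which the study describes as DMSO, the solvent. siMYBL2 and siFOXM1 were set against the same 4 siControl libraries. The hours after transfection are not given in the sources used here.

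Between 16487394 and 30140550 read pairs per library were counted on genes, and the FDI6 and control_FDI6 libraries were the shallowest. The targeted genes were low where they should be: MYBL2 was at 4.505 to 8.85 CPM (the usual depth-scaled count, here with TMM factors) in siMYBL2 against 133 to 182 CPM in siControl, and FOXM1 was at 10.4 to 13.2 CPM in siFOXM1 against 108 to 142 CPM. In siBoth, MYBL2 was at 6.18 to 9.81 CPM and FOXM1 at 10.1 to 14.9 CPM. siMYBL2 also lowered FOXM1, with a log2 fold change of −0.73 ± 0.14 (SE, adjusted p = 0.00754, edgeR's quasi-likelihood test, n = 4 and 4). With FDI-6, FOXM1 mRNA was lower by −0.37 and MYBL2 by −0.51 on the log2 scale (adjusted p = 0.004 and 0.00105), both under a 1.5-fold change. Of the epithelial markers of A549, the keratins KRT8 and KRT18 were at 1019 CPM or more in every library. The others on that list were lower. KRT19 ranged from 37.954 CPM (siControl_siBoth) to 353.36 CPM (siMYBL2). CDH1 ranged from 9.3068 CPM (FDI6) to 90.981 CPM (siFOXM1), and EPCAM from 1.6592 CPM (siBoth) to 37.806 CPM (siFOXM1). Of the 4 alveolar markers, NKX2-1, SFTPB and SFTPC were at 0.320 CPM or less and NAPSA at 3.05 CPM or less. The summed immune list was at 0.485 CPM or less, with CD3E at 0 throughout, and the endothelial list at 4.56 CPM or less. The summed fibroblast list was at 5.71 to 58.4 CPM, most of it COL1A1 (4.87 to 57.9 CPM). In siBoth, 9.09% to 10.9% of read pairs were not aligned, against 7.68% to 7.92% in siControl_siBoth and 1.73% to 3.03% in the other 18 libraries. The part of this in the siBoth values was not tested.

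The promoters of the members were searched for the DNA words that the 3 branches are known to use. The members had been chosen and grouped by textbook role, so the motif counts below are not independent of that choice. The RefSeq table for GRCh38.p14 (250 bases before to 50 after each gene start) held a promoter for 36 of the 38 members. Searched on both strands were the ER stress element (ERSE, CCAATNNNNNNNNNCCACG), its short form (ERSE-II, ATTGGNCCACG), the unfolded protein response element (UPRE, TGACGTGG) and the C/EBP-ATF response element (TGATGNAA). The sites below show the ER stress elements of 2 genes that were lower with FDI-6 (CALR, SDF2L1), 2 that were higher (CANX, HERPUD1) and XBP1, which did not pass, and all 5 C/EBP-ATF elements found in members; each is written 5′ to 3′ on the strand named, with the word in capitals.
CALR, ERSE, chr19:12938379-12938407, minus strand: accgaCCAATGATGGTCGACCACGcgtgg
CANX, ERSE, chr5:179698773-179698801, plus strand: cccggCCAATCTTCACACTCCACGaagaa
XBP1, ERSE, chr22:28800598-28800626, minus strand: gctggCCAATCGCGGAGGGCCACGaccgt
SDF2L1, ERSE-II, chr22:21642105-21642133, minus strand: agggttttgATTGGTCCACGcttccgagg
HERPUD1, ERSE-II, chr16:56932016-56932044, plus strand: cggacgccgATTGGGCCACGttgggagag
HERPUD1, C/EBP-ATF element, chr16:56931955-56931984, minus strand: tgggcacgggcTGATGCAAcccgccgcgtc
SLC3A2, C/EBP-ATF element, chr11:62881725-62881748, minus strand: ggagcTGATGTAAggagtcctgca
ASNS, C/EBP-ATF element, chr7:97872458-97872487, minus strand: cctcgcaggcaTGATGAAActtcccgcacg
CHAC1, C/EBP-ATF element, chr15:40953251-40953280, minus strand: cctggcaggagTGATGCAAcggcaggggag
CEBPG, C/EBP-ATF element, chr19:33374060-33374089, plus strand: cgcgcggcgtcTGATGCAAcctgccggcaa

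The ERSE was found in 6 members (CALR, CANX, CRELD2, HSP90B1, PDIA6 and XBP1), of which 5 belong to the 11 genes of the ATF6 branch and none to the 20 ATF4-branch genes with a promoter. Counted by gene as for the members, it was present in 0.0916% of the 27305 genes of the table, and in 0.0769% of its 35116 promoters. HSP90B1 carried 2 copies. ERSE-II was found in HERPUD1, HYOU1 and SDF2L1 against 0.0696% of all genes, and the UPRE in HYOU1 alone of the members, where it overlaps an ERSE-II, against 0.927%. The shorter C/EBP-ATF element was found in ASNS, CEBPG, CHAC1, HERPUD1 and SLC3A2, or 13.9% of the members searched, against 4.46% of all genes. A match describes letters in this window and was not tested as a binding site. NUPR1 and SHMT2 were not searched.

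The knockdowns and FDI-6 went with different patterns in the 38 genes. FDI-6 raised 8 members and lowered none past both thresholds (an adjusted p under 0.05 over all genes tested and a change of more than 1.5-fold, termed called below). Among all 15240 genes tested with FDI-6, 13.8% were called, 8% higher and 5.77% lower. siMYBL2 lowered 2 members and raised none, where 7.9% of 16065 genes were called, 4.38% higher and 3.52% lower. siBoth lowered 1 member and raised none, where 6.44% of 15812 genes were called, 2.8% higher and 3.64% lower. With siFOXM1, 0 members were called by edgeR, where 0.667% of 15892 genes were called and 0.591% called lower. There, 8 members had an unadjusted p under 0.05, as did 13% of all genes, and DESeq2 called 1 (PHGDH). The median log2 fold change of the 38 was 0.14 with FDI-6, −0.24 with siMYBL2, −0.12 with siFOXM1 and −0.10 with siBoth, and the median of all genes tested lay between −0.012 and 0.017 in the 4 comparisons.

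**Figure D1:**
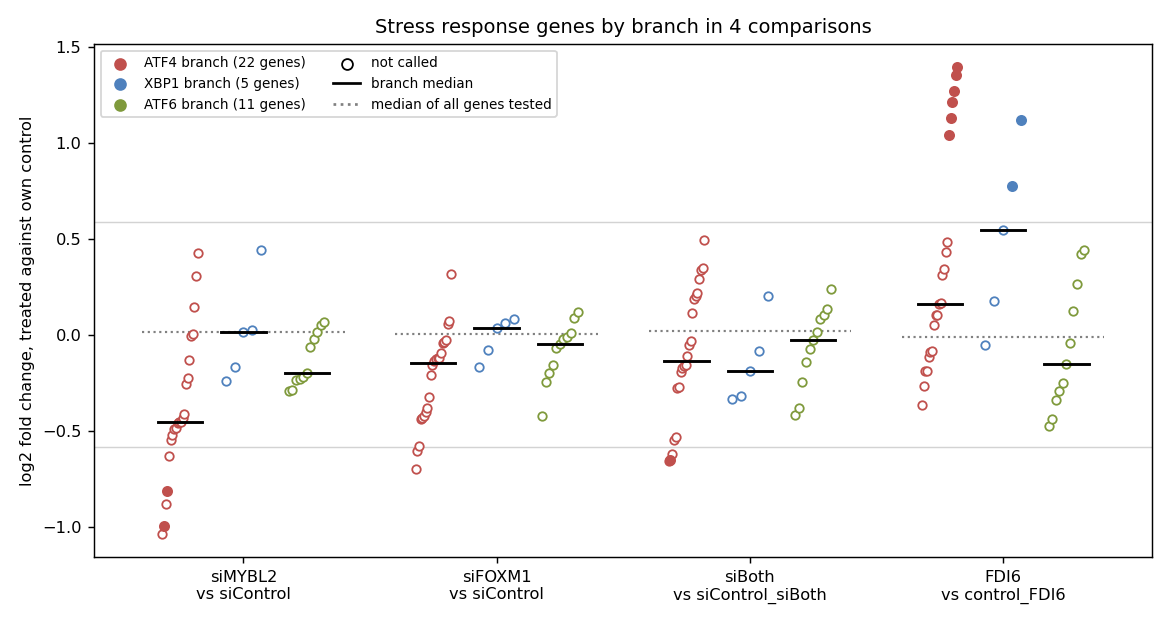
Log2 fold change of each of the 38 genes (one circle per gene) in the 4 comparisons, by branch, with filled circles for called genes, black bars for branch medians, dotted lines for the median of all genes tested and grey lines at a 1.5-fold change. Filled circles above the line appear with FDI-6 in the ATF4 and XBP1 branches, and the few filled circles of siMYBL2 and siBoth lie below it in the ATF4 branch.

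Of the 8 genes that rose with FDI-6, 4 were feedback and stress genes of the ATF4 branch (TRIB3, PPP1R15A, CHAC1 and STC2), and the others were the factor DDIT3, ASNS of amino acid supply, and ERN1 and EDEM1 of the XBP1 branch. By edgeR 0 of the 9 chaperone genes of the ATF6 branch were called, and 7 had an unadjusted p under 0.05, as did 47.7% of all genes. Of the 22 ATF4-branch genes 6 were called higher, of the 5 XBP1-branch genes 2, and of the 11 ATF6-branch genes 0. At an adjusted p under 0.05 whatever the fold, which 21% of all genes passed upward and 17.9% downward, the ATF6 branch split into 3 higher and 5 lower. By role, 4 of the 6 ATF4-branch feedback and stress genes were called higher, 1 of its 6 transcription factors and 1 of its 9 amino acid supply genes.

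DDIT3 (ENSG00000175197.12, chr12:57516588-57521737 on GRCh38, minus strand) encodes CHOP, the bZIP factor linked to cell death under ER stress. It was at 7.87, 7.41 and 10.1 CPM in the FDI6 libraries and at 3.35, 2.87 and 3.61 CPM in the controls. The groups did not overlap, as for 51.9% of all genes in this comparison of 3 with 3 libraries, and the log2 fold change was 1.39 ± 0.18 (SE, 2.63-fold, adjusted p = 0.00013, edgeR's quasi-likelihood test). At this gene 31.6% of exon bases are overlapped on the opposite strand by MARS1 and MBD6, and the strand setting of the counting is not given in the sources used here.

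PPP1R15A encodes GADD34, which brings a phosphatase to eIF2α and so closes the loop on PERK signalling. It was at 68.6, 86.5 and 107 CPM with FDI-6 and at 36.2, 37.1 and 37.3 CPM in the controls. The treated libraries spread over a wide range, but the lowest of them stood well above the highest control, and the log2 fold change was 1.27 ± 0.14 (adjusted p = 3.51e-05). TRIB3, a pseudokinase that restrains ATF4 and AKT, was at 158, 173 and 206 CPM against 81.2, 76.5 and 78.1 CPM. Its log2 fold change was 1.21 ± 0.10 (adjusted p = 4.27e-06).

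STC2 (ENSG00000113739.10, chr5:173314723-173328447, minus strand), which encodes the secreted glycoprotein stanniocalcin 2, gave the smallest adjusted p of the members with FDI-6. It was at 114, 121 and 138 CPM in the treated libraries and at 47.2, 52.3 and 49.5 CPM in the controls, a log2 fold change of 1.35 ± 0.09 (2.55-fold, adjusted p = 9.02e-07). CHAC1, an enzyme that degrades glutathione, was at 14.1, 16.9 and 21.6 CPM against 7.62, 10.4 and 7.92 CPM (log2 fold change 1.04 ± 0.17, adjusted p = 0.00073). Every treated library was above every control for both genes. The other feedback and stress genes, DDIT4 (REDD1, an inhibitor of mTORC1) and VLDLR (a lipoprotein receptor), had log2 fold changes of 0.17 and 0.05 and overlapped between the groups, and with a correction of each library for GC content and length, added after the data were seen, VLDLR was at −0.28 (adjusted p = 0.0403).

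**Figure D2:**
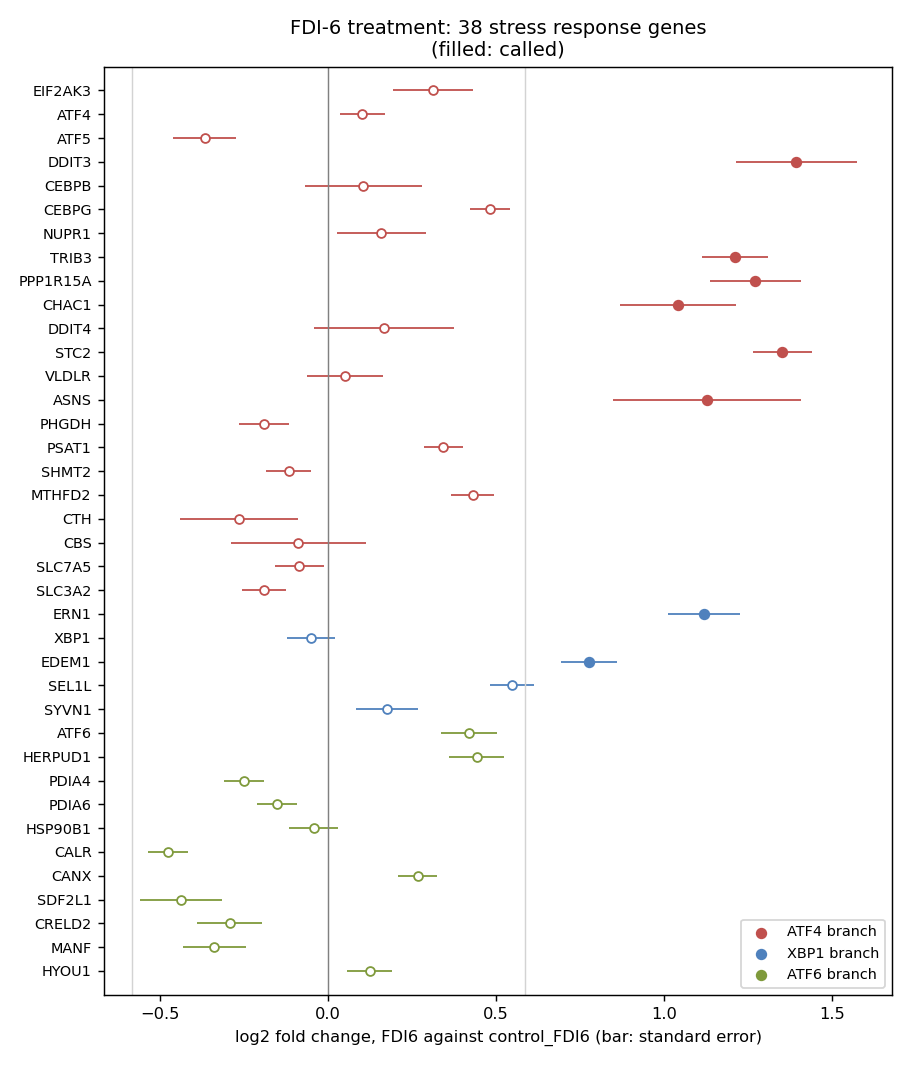
Log2 fold change of the 38 genes with FDI-6 against control_FDI6 (3 libraries each), with bars of 1 standard error, filled circles for called genes and grey lines at a 1.5-fold change. DDIT3, STC2, PPP1R15A, TRIB3, ASNS, ERN1, CHAC1 and EDEM1 lie beyond the upper line, and no gene lies beyond the lower one.

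Of the 6 transcription factors of the ATF4 branch only DDIT3 was called. ATF4 itself (ENSG00000128272.14, chr22:39519695-39522683, plus strand) was at 339.9, 355 and 369.7 CPM with FDI-6 and at 354, 317 and 337 CPM in the controls, and the log2 fold change of 0.10 ± 0.07 did not pass (adjusted p = 0.246). CEBPG, a C/EBP factor that pairs with ATF4, was higher by 0.48 ± 0.06 (adjusted p = 0.000108), under the fold threshold. ATF5, a bZIP factor under similar translational control, was lower by −0.37 ± 0.09 (adjusted p = 0.0092). CEBPB and NUPR1, a small stress-inducible chromatin protein, had log2 fold changes of 0.10 and 0.16 that did not pass, and the kinase gene EIF2AK3 was at 0.31 with an adjusted p of 0.0546. With the GC and length correction ATF4 was at 0.32 (adjusted p = 0.000145), CEBPB at 0.55 (6.55e-05) and ATF5 at −0.05 (0.618).

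Amino acid supply genes were mixed. ASNS, asparagine synthetase, was at 3.72, 3.45 and 2.29 CPM with FDI-6 against 1.78, 1.56 and 1.02 CPM, a log2 fold change of 1.13 ± 0.28 (adjusted p = 0.00782). These values rest on few counts: 49.3% of the exon bases of ASNS are shared on the same strand with a read-through gene, and pairs that fit both are left out by the counting. The read-through gene itself was at 0.541 to 0.708 CPM with FDI-6 and at 0.862 to 0.919 CPM in the controls. PSAT1, the second enzyme of serine synthesis, and MTHFD2, a mitochondrial enzyme of folate metabolism, were higher by 0.34 ± 0.06 and 0.43 ± 0.06 (adjusted p = 0.000735 and 0.000409). PHGDH, the first enzyme of serine synthesis, was at −0.19, with an adjusted p of 0.0581. SLC3A2, the heavy chain of the amino acid transporter whose light chain is SLC7A5, was lower by −0.19 ± 0.07 (adjusted p = 0.0374), and SLC7A5 was at −0.09. SHMT2, CTH and CBS, enzymes of serine, cysteine and homocysteine metabolism, were between −0.27 and −0.09 and did not pass. With the GC and length correction PHGDH, SHMT2, CBS, SLC7A5 and SLC3A2 changed sign to values between 0.09 and 0.16, none of which passed.

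In the XBP1 branch the sensor and 2 of the 3 ERAD genes were higher with FDI-6 at an adjusted p under 0.05. ERN1 (ENSG00000178607.15, chr17:64039080-64130819, minus strand) was at 43.7, 37.7 and 46.0 CPM against 20.7, 21.4 and 17.6 CPM, a log2 fold change of 1.12 ± 0.11 (2.17-fold, adjusted p = 1.55e-05). EDEM1, a lectin-like protein that sends misfolded glycoproteins to ERAD, was at 99.2, 86.9 and 90.0 CPM against 50.8, 53.0 and 59.9 CPM (0.78 ± 0.08, adjusted p = 4e-05). With the GC and length correction EDEM1 was at 0.56 and under the 1.5-fold threshold, while SYVN1 was at 0.39 and passed (adjusted p = 0.000636). SEL1L, the scaffold of the HRD1 ubiquitin ligase, was higher by 0.55 ± 0.07 (adjusted p = 7.71e-05), and SYVN1, which encodes HRD1, was at 0.18 (adjusted p = 0.155). XBP1 was at 67.7, 61.4 and 65.9 CPM against 66.3, 71.0 and 67.9 CPM, with overlapping groups and a log2 fold change of −0.05 ± 0.07 (adjusted p = 0.606).

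In the ATF6 branch, the sensor ATF6 (0.42 ± 0.08, adjusted p = 0.00235), the ERAD gene HERPUD1 (0.44 ± 0.08, 0.00142) and the membrane chaperone calnexin, CANX (0.27 ± 0.06, 0.00385) were higher with FDI-6. Calreticulin, CALR (ENSG00000179218.13, chr19:12938578-12944489, plus strand), the luminal relative of calnexin, went the other way. It was at 381, 414 and 406 CPM against 576, 562 and 562 CPM, and every treated library was below every control (−0.48 ± 0.06, adjusted p = 9.21e-05). The chaperone and secreted-protein genes SDF2L1, MANF, CRELD2 and PDIA4 were lower by −0.44, −0.34, −0.29 and −0.25, with adjusted p of 0.0142, 0.0135, 0.032 and 0.00584. PDIA6, HSP90B1 (GRP94, the HSP90 of the ER) and HYOU1 (GRP170) lay between −0.15 and 0.12 and did not pass. The small changes depended on the correction for GC content and length, with which SDF2L1 and CRELD2 were at 0.10 and 0.09, CANX at 0.00 and ATF6 at 0.09, whereas CALR at −0.29, PDIA4 at −0.17 and HERPUD1 at 0.43 still passed. PDIA6 at −0.15, HSP90B1 at −0.15 and HYOU1 at 0.18 passed with the correction alone (adjusted p = 0.026, 0.0181 and 0.0111). The 9 members with an ERSE or ERSE-II had log2 fold changes from −0.48 (CALR) to 0.44 (HERPUD1), 3 above and 6 below 0. By edgeR 0 of them were called, where 13.8% of all genes were. At an adjusted p under 0.05, 2 were higher and 3 lower, where 21% of all genes were higher and 17.9% lower.

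**Figure D3:**
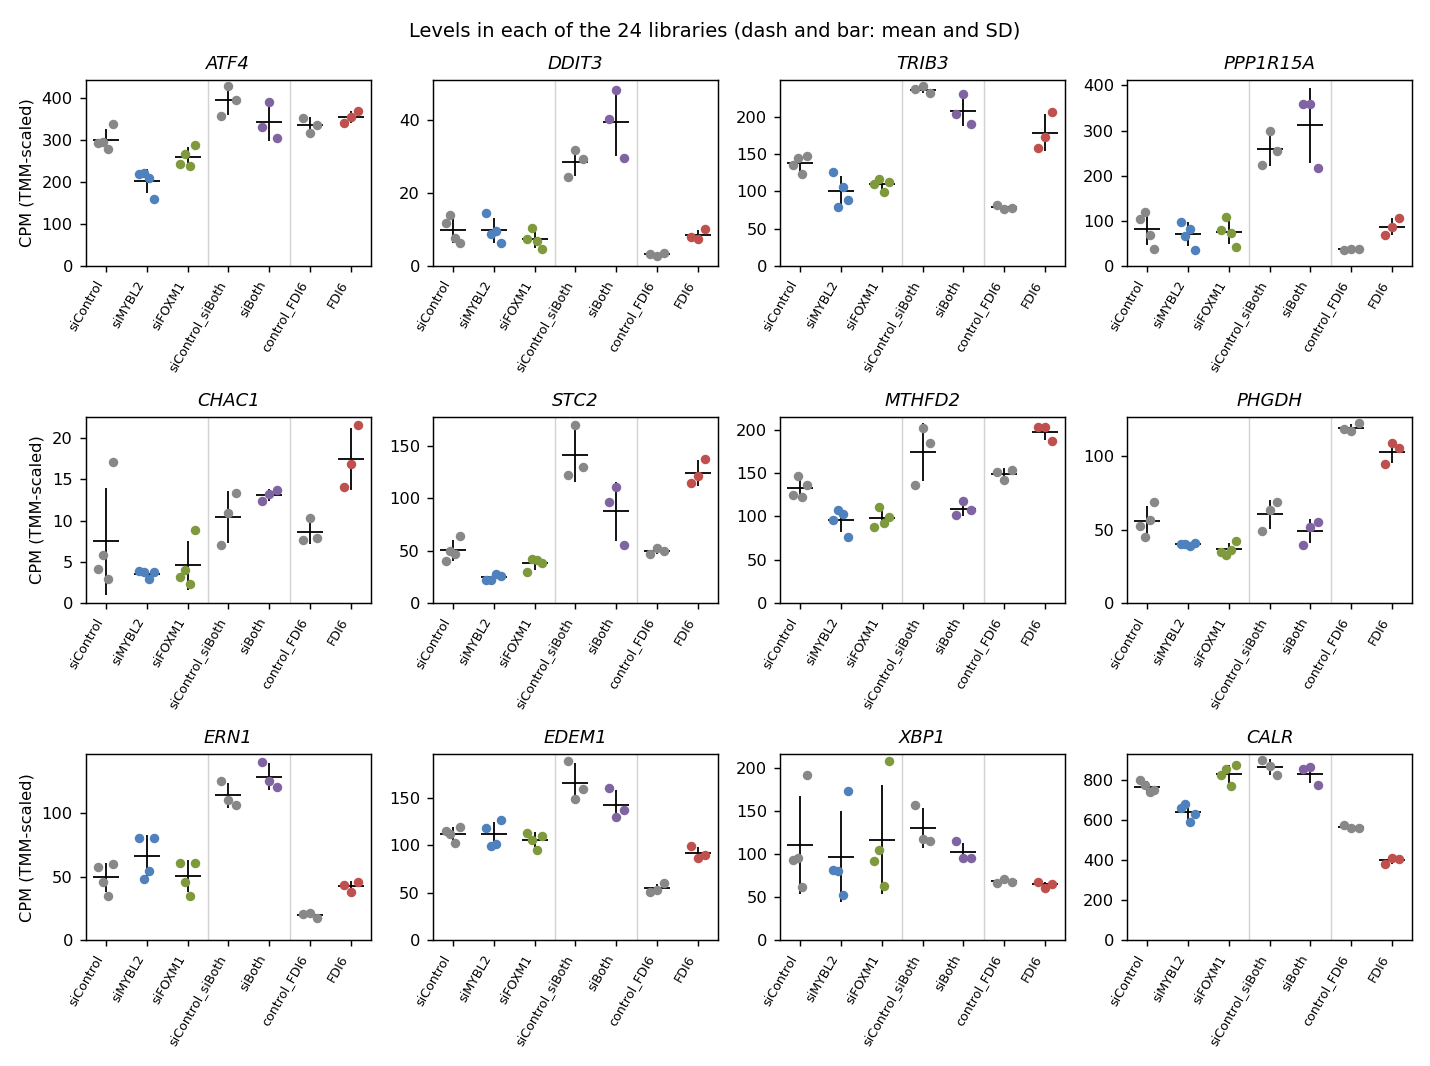
CPM of 12 genes in each of the 24 libraries, with the mean and SD of each group; vertical lines separate the single knockdowns, the joint knockdown and the FDI-6 experiment, and each panel has its own axis from 0. FDI-6 libraries stand above their controls for DDIT3, TRIB3, PPP1R15A, CHAC1, STC2, ERN1 and EDEM1 and below them for CALR, and the siControl_siBoth level of DDIT3 and PPP1R15A is above that of the other controls.

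Markers of the cells themselves moved with FDI-6. Of the 5 epithelial markers, KRT8, KRT18 and CDH1 were called lower with log2 fold changes of −0.81, −0.65 and −1.49. EPCAM was lower by −0.47 and KRT19 higher by 0.35, both under the fold threshold (adjusted p = 0.0106 and 0.00549). The summed level of the list, most of it KRT8 and KRT18, was 4244 to 5013 CPM with FDI-6 against 7573 to 8232 CPM in the controls. Of the fibroblast list, COL1A1 was called lower (−1.28) and made up most of the list sum of 5.71 to 9.42 CPM against 17.6 to 19.4 CPM, whereas COL1A2, too low to be tested, was at 0.541 to 0.871 CPM against 0.0541 to 0.146 CPM. The part of these differences in the stress genes was not tested.

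siMYBL2 went with lower ATF4-branch transcripts. Of the 22 genes 18 were below siControl, as were 48% of all genes tested. The branch median was −0.45 against 0.0146 for all genes tested, while the medians of the XBP1 and ATF6 branches were 0.015 and −0.20. In the ATF6 branch 8 of 11 genes were below siControl, and in the XBP1 branch 2 of 5. With siFOXM1, set against the same siControl libraries, 19 of the 22 ATF4-branch genes were lower, with a smaller median of −0.15. There 7843 of 15892 genes tested were lower. With siBoth 14 of the 22 were lower (median −0.14), as were 7573 of 15812 genes tested. At an adjusted p under 0.05 whatever the fold, 8 ATF4-branch and 2 ATF6-branch genes were lower and 0 members higher, where 9.53% of all genes were lower and 8.53% higher.

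STC2 was again the member with the smallest adjusted p, in the opposite direction to FDI-6. It was at 22.6, 22.2, 27.997 and 26.4 CPM in siMYBL2 and at 39.9, 49.8, 47.4 and 64.4 CPM in siControl, so that the groups did not overlap, as for 23.1% of all genes here. The log2 fold change was −0.999 ± 0.15 (adjusted p = 0.00264). CBS, cystathionine β-synthase, was at 1.24, 1.68, 1.196 and 1.68 CPM against 2.47, 2.49, 1.92 and 3.51 CPM (−0.81 ± 0.23, adjusted p = 0.0357). This call was lost on leaving out siMYBL2 replicate 1 or 3 or siControl replicate 1, 2 or 4, with adjusted p from 0.0624 to 0.10, and pairs that also fit the near-identical copy CBSL are not counted.

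Under the 1.5-fold threshold, ATF4, CEBPG and 4 of the 9 amino acid supply genes were lower with siMYBL2 at an adjusted p under 0.05. ATF4 was at 220, 223, 209 and 160.3 CPM against 292, 296, 279 and 338 CPM (−0.55 ± 0.11, adjusted p = 0.00921), and its groups did not overlap. SLC7A5 was at 796 to 1058 CPM against 1110.3 to 1527 CPM (−0.52 ± 0.12, adjusted p = 0.0193). PSAT1, PHGDH and MTHFD2 were at −0.49, −0.46 and −0.45, with adjusted p of 0.00281, 0.0254 and 0.0194, and CEBPG was at −0.41 (0.0101). Of the remaining supply genes besides CBS, SLC3A2 was at −0.26, ASNS at −0.49, SHMT2 at 0.14 and CTH at 0.31, and none passed. CALR and CANX were at −0.24 and −0.22 (0.0287 and 0.0481). DDIT3 and PPP1R15A, which rose with FDI-6, had log2 fold changes of 0.01 and −0.22 with siMYBL2 and overlapped between the groups.

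Same-numbered libraries of a knockdown and its control deviated together, so the replicate number was also fitted as a block. With it 5 members were called lower by siMYBL2, where 12.4% of all genes were called and 4.71% called lower. At a block adjusted p under 0.05 whatever the fold, 22 members were lower and 4 higher, where 23.1% of all genes were lower and 23.6% higher. The 4 that were higher were VLDLR at 0.43 (4.27e-05), ERN1 at 0.43 (0.000417), SHMT2 at 0.14 (0.00714) and CTH at 0.30 (0.0326). STC2 and CBS were called at −0.99 and −0.81 (block adjusted p = 6.45e-07 and 0.00136). The others were ATF5 at −0.64 (6.62e-05), NUPR1 at −0.85 (0.00488) and CHAC1 at −0.86 (0.0186). The CHAC1 value leaned on 1 pair: the log2 ratio of same-numbered libraries was −2.18 for replicate 4 and −0.11, −0.61 and −0.03 for replicates 1 to 3, and siControl replicate 4 held 17.1 CPM against 2.96 to 5.85 CPM in the other 3. ATF4 was below its same-numbered control in 4 of 4 pairs, with log2 ratios of −0.41, −0.41, −0.42 and −1.08. Of the 22 ATF4-branch genes 14 were below their control in all 4 pairs, 3 were above it in all 4 (VLDLR, SHMT2 and CTH) and 5 went both ways, where 29.8% of all genes were below and 27% above in all 4. Lowering in every pair was not particular to that branch. Of the 11 ATF6-branch genes 7 were below in all 4 pairs and 0 above. Of the 5 XBP1-branch genes 2 were below and 1 above.

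**Figure D4:**
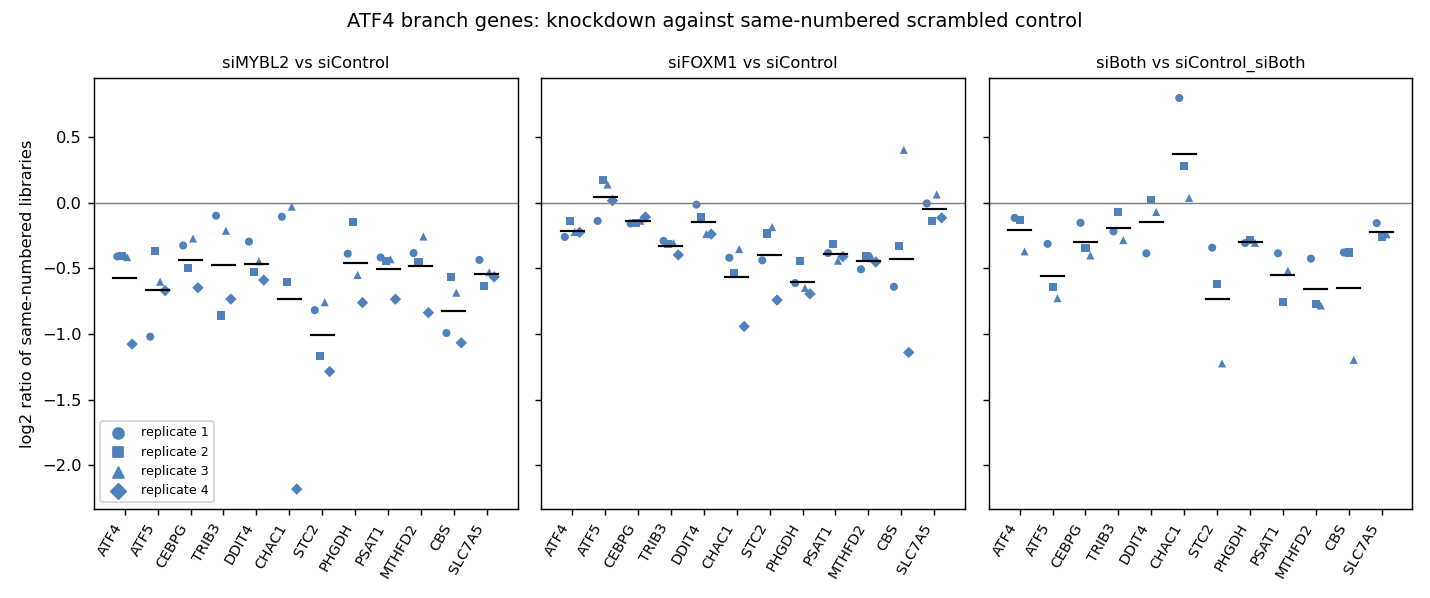
Log2 ratio of each knockdown library to its same-numbered scrambled control for 12 of the 22 ATF4-branch genes, with a symbol per replicate number and a bar at the mean. With siMYBL2 all 4 pairs lie below 0 for each of the 12 genes, and replicate 4 of CHAC1 stands far below the rest. All 12 are among the 14 branch genes below 0 in every siMYBL2 pair. The 3 branch genes above 0 in all pairs and the 5 that went both ways are not shown.

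With siFOXM1 the result depended on the block. Without it 0 members passed the adjusted p in either direction. With it 18 were lower and 3 higher at an adjusted p under 0.05, where 14% of all genes were lower and 12.3% higher. Of these, 13 of the lower and 1 of the higher were among the 22 ATF4-branch genes. Without the block the lowest adjusted p values were those of genes of serine and folate metabolism and of ATF6. MTHFD2 was at 87.8, 111, 92.7 and 99.1 CPM against 124.9, 147, 123 and 136 CPM (−0.44 ± 0.09, adjusted p = 0.0515), PSAT1 was at −0.38 ± 0.08 (0.0537) and PHGDH at −0.60 ± 0.13 (0.0662). The sensor gene ATF6 was at 62.7, 63.0, 49.7 and 63.3 CPM against 83.4, 78.2, 75.2 and 85.2 CPM (−0.43 ± 0.09, adjusted p = 0.0522). In the blocked fit MTHFD2 (adjusted p = 1.41e-10), PSAT1 (4.03e-10), ATF6 (8e-09) and TRIB3 (3.99e-08) passed, at log2 fold changes of −0.44, −0.38, −0.43 and −0.32. For MTHFD2, PSAT1, PHGDH and ATF6 no siFOXM1 library reached the lowest siControl library. Groups that did not overlap, in either direction, were found for 9.21% of all genes. MTHFD2, PSAT1, PHGDH and ATF6 were named for their low adjusted p in the same libraries, so their separation is not independent of that choice. Past the fold threshold too, PHGDH was called with the block at −0.60 (block adjusted p = 1.03e-10) and CHAC1 at −0.65 (0.000102), where 2.52% of all genes were called and 1.47% called lower. ATF4 was at −0.21 in both fits (adjusted p = 0.319, and 7.53e-06 with the block).

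siBoth lowered MTHFD2, which was at 101, 118 and 107 CPM against 136, 202 and 184 CPM in siControl_siBoth (−0.65 ± 0.14, adjusted p = 0.0253). The groups did not overlap, as for 35.3% of all genes. The call was lost without siBoth replicate 1 or 2 or siControl_siBoth replicate 2 or 3 (adjusted p from 0.0536 to 0.0842), and with the GC and length correction MTHFD2 was at −0.52 and not called, while ATF5 was called at −0.71 (adjusted p = 0.0178). PSAT1 (−0.53, adjusted p = 0.0265), ATF5 (−0.55, 0.0366) and CANX (−0.42, 0.0265) passed the adjusted p alone, which 7.77% of all genes passed downward. STC2 was at 96.5, 111 and 55.8 CPM against 122, 170.5 and 130.3 CPM (−0.66 ± 0.24, adjusted p = 0.107). With the block, STC2 at −0.70 (0.000176) and CBS at −0.61 (0.0409) were called beside MTHFD2, where 11.7% of all genes were called and 5.08% called lower. At a block adjusted p under 0.05 whatever the fold, 14 members were lower and 5 higher, against 18.5% and 16.3% of all genes. DDIT3, at 40.3, 48.2 and 29.6 CPM against 24.3, 31.9 and 29.4 CPM, had a log2 fold change of 0.49 ± 0.18 that did not pass (0.112).

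Whether the responses differed was tested by contrasts between effects in 1 fit of all 24 libraries, at an adjusted p under 0.05 over 17752 genes. Contrasts of FDI-6 with a knockdown, and of siBoth with siMYBL2, span separate experiments with unlike control levels. In them treatment and experiment cannot be told apart. The effect of FDI-6 differed from that of siFOXM1 in 15 of the 38 members, 14 of them higher with FDI-6, where 20% of all genes differed and 11.8% were higher. Of those that passed, the largest differences were DDIT3 at 1.83 ± 0.42 (adjusted p = 0.00378), STC2 at 1.75 ± 0.27 (9.1e-05), ASNS at 1.71 ± 0.55 (0.0309) and TRIB3 at 1.53 ± 0.17 (2.83e-06), and CHAC1 was at 1.74 ± 0.62 without passing (0.0533, and 0.000289 with the block). CALR was the exception, at −0.60 ± 0.09 (7.54e-05). The effect of FDI-6 also differed from that of siMYBL2 in 15 members, all higher with FDI-6, where 25.1% of all genes differed and 14.8% were higher. STC2 stood apart by 2.35 ± 0.27 (2.13e-06), CHAC1 by 2.09 ± 0.63 (0.0183) and ATF4 by 0.66 ± 0.15 (0.00266). Against siBoth, 13 members differed, 11 higher with FDI-6 and CALR and CRELD2 lower, where 29.5% of all genes differed and 16.6% were higher. STC2 was again at the top, at 2.01 ± 0.28 (1.71e-05).

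The contrast of siMYBL2 with siFOXM1, added after the values were seen, has the shared siControl libraries cancel. It differed for 10 members, 8 of them lower with siMYBL2, where 25.3% of all genes differed and 13% were lower. ATF4 was lower by −0.35 ± 0.10 (adjusted p = 0.0105), NUPR1 by −1.21 ± 0.23 (0.000481), SLC7A5 by −0.49 ± 0.12 (0.00285) and CALR by −0.37 ± 0.06 (6.62e-05). ATF6 was higher by 0.48 ± 0.08 (0.000165), and SHMT2 by 0.26 ± 0.09 (0.0345). PHGDH, PSAT1 and MTHFD2 were not among the 10. Between siBoth and siMYBL2, 0 members differed by edgeR's test without the block, where 0.304% of all genes differed, and 7 had an unadjusted p under 0.05, as did 8.78% of all genes. With the block 6 members differed, where 6.58% of all genes did. With the block 20 members differed between siMYBL2 and siFOXM1 (42% of all genes), and FDI-6 differed from siFOXM1, siMYBL2 and siBoth in 21, 27 and 23 members (37.7%, 42% and 45.7% of all genes).

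Other genes of the pathway, 94 in 7 lists, were read in the same fits. With FDI-6, where 8% of all genes were called higher and 5.77% lower, of the 21 other ATF4 targets tested 9 were called higher and 0 lower. ATF3, a bZIP factor of the stress response, was at 12.7, 14.7 and 17.7 CPM against 3.57, 4.87 and 3.99 CPM, with a log2 fold change of 1.88 ± 0.17 (adjusted p = 9.71e-06). KLHL24 was at 1.37 ± 0.12 and ALDH1L2, a mitochondrial folate enzyme, at 0.95 ± 0.11 (8.19e-06 and 6.27e-05). Of the 16 other XBP1 targets tested 4 were called higher, among them the ER co-chaperone DNAJB9 (0.82 ± 0.10, adjusted p = 0.000128), and 1 lower, EDEM2 (−0.64 ± 0.08, 7.17e-05). Of the 17 other ATF6 targets and ER chaperones 3 were called higher and 0 lower, and HSPA5 (BiP), the main HSP70 chaperone of the ER, was at 824 to 854 CPM against 742 to 757 CPM, higher by 0.18 ± 0.05 (0.0136) and under the fold threshold. Of the 12 cytosolic tRNA synthetases all were above the controls, 10 passed the adjusted p and 0 were called (median 0.22). Of the 11 kinases and regulators of eIF2 1 was called higher, of the 9 other ERAD genes 0 were called and 7 had an unadjusted p under 0.05 against 47.7% of all genes, and of the 6 cytosolic heat shock genes 1 was called higher.

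In siMYBL2, where 4.38% of all genes were called higher and 3.52% lower, the 21 other ATF4 targets tested gave 3 calls, all lower. SLC7A1, a transporter of cationic amino acids, was at 36.4 to 52.1 CPM against 124.5 to 141 CPM (−1.52 ± 0.11, adjusted p = 8.3e-05). XPOT, which exports tRNA from the nucleus, and PYCR1, an enzyme of proline synthesis, were both at −0.77 (adjusted p = 0.000561 and 0.00241). In siBoth the same 3 genes were called lower, at −1.41, −0.71 and −0.60, beside EDEM3 (−0.81) and CREB3L2 (−0.99), and SESN2, a stress-induced regulator of mTORC1, was called higher (0.77 ± 0.18, adjusted p = 0.03). These were 5 called lower and 1 higher of 86 pathway genes tested outside the heat shock list. Of all genes, 3.64% were called lower and 2.8% higher in siBoth. In siMYBL2 1 tRNA synthetase was called lower, YARS1 (−0.67, named after its value was seen), and WIPI1, of the XBP1 list, was called higher (0.61). With the block SLC6A9 (−0.66) and CREB3L1 (0.67) were also called, named likewise, where 12.4% of all genes were called. With siFOXM1, 0 of the 86 pathway genes tested outside the heat shock list were called by edgeR without the block, and 19 had an unadjusted p under 0.05 against 13% of all genes. With the block 2 were called, EDEM3 at −0.60 and HSPA13 at −0.59, also named after their values were seen, where 2.52% of all genes were called. HSPA5 lay between −0.22 and −0.14, DNAJB9 between 0.18 and 0.37 and ATF3 between −0.49 and 0.01 in the 3 knockdowns, and none of them was called.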

How the data were processed

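Poly(A) RNA was sequenced as 150 bp paired ends. According to the study's methods the authors trimmed reads with Trim Galore, aligned them to hg38 with STAR and counted them with HTSeq, and they deposited one table of raw counts per gene for each library. Tool versions and the strand setting are not given in the sources used here. Pairs not assigned to a gene (18.5% to 26.2%) were left out. The methods speak of biological replicates without more detail, so p-values measure the spread between these libraries.

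Each treatment was set against its own control with edgeR 4.0.16 (R 4.3.3, limma 3.58.1): TMM scaling, filterByExpr, the quasi-likelihood test and Benjamini-Hochberg adjustment over all genes tested. A gene was called at an adjusted p under 0.05 and a change over 1.5-fold. Values after ± are standard errors, derived from the log2 fold change and its F statistic. Differences between effects were contrasts in 1 fit of 24 libraries. The fits without the block were tested on simulated counts drawn independently for each library. Those counts lacked the deviations that same-numbered knockdown libraries share, so the test does not cover them. The members, branches and gene lists were chosen with earlier results of these data known. Named were all 38 members, MYBL2 and FOXM1, up to 3 called pathway genes with the largest rise and the largest fall per comparison, and HSPA5, DNAJB9 and ATF3.

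Within the knockdowns, libraries that shared a number also deviated together from the group mean in every pair (mean correlation 0.701, 0.756 and 0.599 for siMYBL2, siFOXM1 and siBoth), and this alone is where the pairing comes from; the replicate block was fitted as an alternative. Also run were upper-quartile and RLE scaling, DESeq2 1.42.0, other count filters, glmTreat, leaving out each library, and, chosen after seeing the data, a GC and length correction.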

Additional observations from a re-analysis of the deposited data

Results flagged for a closer look

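In 7 of the 114 groups of 4 libraries examined for the members, 1 library stood apart from the other 3, where about 5.7 are expected by chance at 1 in 20. All of them were replicate 3 or 4. Groups of 4 occur only in the single-knockdown experiment, its siControl libraries included. CTH was highest in replicate 4 of siControl (8.21 CPM, others 3.52 to 4.06) and in replicate 4 of siFOXM1 (9.43 CPM, others 3.51 to 3.92). Replicate 4 of siMYBL2 was lowest for SHMT2 (138.3 CPM, others 171 to 176) and for SLC3A2 (422 CPM, others 548 to 560.3). Replicate 3 was lowest for CHAC1 in siMYBL2 (2.89 CPM, others 3.77 to 3.88), for SYVN1 in siControl (53.4 CPM, others 67.1 to 69.1) and for ATF6 in siFOXM1 (49.7 CPM, others 62.7 to 63.3).

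Outside the gene counts, read pairs that were not aligned made up at least 9.09% of each siBoth library, above the 7.92% of the highest siControl_siBoth library. The part of this in the siBoth values was not tested.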

How the results depend on the processing

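Of 2508 values of members under the alternatives, 2329 kept their direction and their side of the thresholds, 124 changed sign without being called in either fit, 35 became called and 20 lost the call. With the replicate block, which rests on the pairing of library numbers, the calls were 5 members in siMYBL2, 2 in siFOXM1, 3 in siBoth and 8 with FDI-6, and all genes called numbered 1991, 401, 1849 and 2013 against 1269, 106, 1019 and 2098 without it. The FDI-6 libraries shared only a number (correlations −0.288 to 0.161). With the block the members that differed numbered 20 for siMYBL2 against siFOXM1, 27 and 23 for FDI-6 against siMYBL2 and siBoth, and 6 for siBoth against siMYBL2. GC and length correction together with the block called 5, 2 and 3 members in the knockdowns. Without the block this correction left 7 members called with FDI-6 and 1324 genes in all, and 9 of the 38 members changed sign.

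A test against a 1.5-fold change (glmTreat) called 0 members for siMYBL2, 0 for siBoth and 5 for FDI-6, and 199, 14, 128 and 496 genes in all in the order siMYBL2, siFOXM1, siBoth, FDI-6. DESeq2 called 1 member for siFOXM1 and 2 for siBoth, and 163 genes in all for siFOXM1. Without a filter on low counts 1 and 2 members were called in those comparisons, and 1545 genes in all for siBoth. A fit of the 12 single-knockdown libraries called 1 member for siFOXM1. Upper-quartile scaling called 0 members for siBoth, and it moved the share of calls that were higher from 55.5% to 63.8% in siMYBL2, from 43.5% to 59.4% in siBoth and from 58.1% to 49.8% with FDI-6. The cause of these shifts was not tested.

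On leaving out 1 library at a time the members called ranged from 1 to 4 for siMYBL2, 0 to 3 for siBoth and 8 to 8 for FDI-6, with 0 throughout for siFOXM1. The members that differed ranged from 8 to 12 for siMYBL2 against siFOXM1, and for FDI-6 from 11 to 16 against siFOXM1, 10 to 18 against siMYBL2 and 10 to 13 against siBoth. For siBoth against siMYBL2 it was 0 throughout. Each group held 3 or 4 libraries, and the lowest members, ASNS and CBS, rested on few counts.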

Other observations

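The 3 control groups differed from each other in the level of these genes. Among the members, siControl_siBoth had the highest mean of the 3 control groups for 26 of 38 (68.4%, against 33.6% of the 17788 genes tested), and every one of its libraries was above every other control library for 18 (47.4%, against 12.7%). control_FDI6 had the lowest mean for 24 (63.2%, against 40%), and its libraries were below every other control library for 20 (52.6%, against 20%). Of the 11 ATF6-branch genes, 10 had their highest mean in siControl_siBoth and 10 their lowest in control_FDI6. DDIT3 was at 24.3 to 31.9 CPM in siControl_siBoth, 6.39 to 14.1 CPM in siControl and 2.87 to 3.61 CPM in control_FDI6. PPP1R15A was at 224 to 300.04 CPM, 37.96 to 120.5 CPM and 36.2 to 37.3 CPM in the same order. Cells of siControl and siControl_siBoth were both transfected with scrambled siRNA, and the source of the gap between these groups was not tested. For control_FDI6 against them, transfection and the experiment a library belongs to cannot be told apart.

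With FDI-6, DDIT3 reached 7.41 to 10.1 CPM, within the 6.39 to 14.1 CPM of the siControl libraries of the single knockdowns.

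The cytosolic tRNA synthetases, which ATF4 is known to induce, were read as a list of 12. With siFOXM1 all 12 were below siControl (median −0.18), with 0 called by edgeR and 7 at an unadjusted p under 0.05, against 13% of all genes. With the replicate block 11 were lower at an adjusted p under 0.05, against 14% of all genes. With siMYBL2 10 were lower (median −0.25), 6 at an adjusted p under 0.05 against 9.53% of all genes, and with FDI-6 all 12 were higher (median 0.22), 10 at an adjusted p under 0.05 against 21% of all genes. In siBoth 9 synthetases were lower (median −0.20), 3 at an adjusted p under 0.05 against 7.77% of all genes. The 6 cytosolic heat shock genes were all below siControl with siMYBL2 (median −0.19), 1 at an adjusted p under 0.05 against 9.53% of all genes. All 6 were above control with FDI-6 (median 0.49), 5 at an adjusted p under 0.05 against 21% of all genes. With siFOXM1 3 were higher and 3 lower (median −0.0034), and with siBoth 2 were higher and 4 lower (median −0.05). In both, 0 passed the adjusted p.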
